A study of Sus scrofa with 32 samples.

Results

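Carbonic anhydrases and the transporters that move bicarbonate and chloride were followed through the compartments of the pig endometrium on Day 14. The 7 genes are CA2, CA3, CA8, CA12, SLC4A4, SLC4A7 and CFTR, out of 30185 genes in the count tables. CA3, CA8, CA12, SLC4A4, SLC4A7 and CFTR were matched to NCBI gene IDs by pig symbol. The Sscrofa11.1 annotation names CA2 only by its product, carbonic anhydrase 2, and it was matched through that name. The genes were chosen by their role with the CPM of these libraries in pregnant against cyclic gilts already known, so that contrast is described for them without a test.

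Carbonic anhydrases convert carbon dioxide and water to bicarbonate and a proton and back. CA2 and CA3 are cytosolic isoforms, CA12 sits in the plasma membrane with its catalytic domain outside the cell, and CA8 is a related protein without the enzyme activity that is known to bind the inositol trisphosphate receptor. SLC4A4 and SLC4A7 are cotransporters that carry sodium and bicarbonate together, and CFTR is a cAMP-regulated anion channel that passes chloride and bicarbonate at the apical side of epithelia. The study describes CFTR as a regulator of fluid secretion in the uterus. What the other genes do for uterine fluid was not tested here.

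The study used 8 prepuberal gilts whose ovulation was synchronised with eCG and hCG. The 4 pregnant gilts (named P139, P39, P41 and P43 here, after the numbers in the labels) had been inseminated with boar semen and the 4 cyclic, nonpregnant gilts (C128, C40, C42 and C78) with the supernatant of that boar's semen, and endometrium was taken on Day 14 from both, in pregnant gilts from the reddened zones where the conceptus lay. The luminal (LE) and the glandular (GE) epithelium, larger blood vessels (BV) and the stroma between them (S) were cut from frozen sections by laser capture microdissection, which collects selected tissue areas under a microscope, and 1 library was made for each gilt and compartment. Of the study's 4 pregnant GE libraries 3 are used here, as GE counts of P41 were not at hand, and every other group has 4. Gilts are the replicates throughout, and the pregnant group differed from the cyclic one in the inseminate as well as in the presence of conceptuses.

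The 31 libraries held between 2415216 and 7081556 counts on genes. Expression is given as CPM, the counts scaled to a common library total after TMM normalization over all libraries, and mean values carry the SD over gilts. A gene is called detectable in a compartment where it passed the authors' filter on low counts. The summed CPM of 7 epithelial markers (EPCAM, CDH1, KRT7, KRT8, KRT18, KRT19 and CLDN4) lay between 1364 and 3275 in LE and GE libraries and between 2.56 and 425 in BV and S libraries, and 6 endothelial markers had their highest medians in BV (1445 to 2935 CPM per library), overlapping with S (501 to 2722 CPM). Fibroblast markers were present in all libraries, with 4097 to 16514 CPM in LE and 2877 to 7533 CPM in GE against 25082 to 106304 CPM in BV and S. The sum over 6 trophoblast markers reached 9.92 CPM in LE of P43 and at most 2.72 CPM in any other library. In pregnant LE only IFNG had counts, and CYP17A1, CYP19A1 and IL1B2 were at 0 in every library. PAG2 and PAG3 of this list matched no gene. A smaller share of one cell type in a capture and less RNA per cell of it cannot be told apart in such libraries.

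The genes lie on 5 chromosomes of Sscrofa11.1. CA2 (gene ID 100154873, chr4:51194686-51211436) and CA3 (gene ID 494016, chr4:51227485-51237861) are neighbours on the minus strand, and CA8 (gene ID 100157869, chr4:73047867-73172215) is on the plus strand of the same chromosome. CA12 (gene ID 100152749) occupies chr1:108649277-108710658, SLC4A4 (gene ID 503546) chr8:67768955-68177213, SLC4A7 (gene ID 100524044) chr13:13933552-14043108 and CFTR (gene ID 403154) chr18:28627717-28818209. CA12 lies inside APH1B, which is transcribed from the opposite strand and shares 0 exon bases with it, and overlaps LOC110260967 in 11 exon bases, but LOC110260967 had 3 counts over all libraries. Whether the counting used strand is not given in the sources used here.

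The region upstream of CA2 is shown because it had the highest level of the 7 genes in pregnant LE per kb of transcript, and that of CA13 because this carbonic anhydrase of the same stretch of chromosome 4 changed in LE. Each is the 250 bases before the annotated start of the gene, 5′ to 3′ on the minus strand, from the RefSeq genome Sscrofa11.1, at chr4:51211437-51211686 for CA2 and chr4:51468972-51469221 for CA13. TATAAA, the TATA box letters, was searched on both strands and would stand in capitals, and neither of these sequences holds it. Some windows of other genes among the 7 do hold it.
CA2: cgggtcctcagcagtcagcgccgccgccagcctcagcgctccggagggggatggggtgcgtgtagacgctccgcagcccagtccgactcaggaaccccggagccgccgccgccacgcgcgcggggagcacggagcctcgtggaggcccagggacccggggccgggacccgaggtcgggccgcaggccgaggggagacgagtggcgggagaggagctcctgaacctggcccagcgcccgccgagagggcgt
CA13: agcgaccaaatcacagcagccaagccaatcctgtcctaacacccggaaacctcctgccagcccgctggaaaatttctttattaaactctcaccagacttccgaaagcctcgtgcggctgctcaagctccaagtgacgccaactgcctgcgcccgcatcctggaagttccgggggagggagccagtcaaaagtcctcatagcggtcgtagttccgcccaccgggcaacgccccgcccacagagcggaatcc

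In a window of this length, 10.4% of 20656 pig genes held TATAAA. GC content was 76.8% for CA2 and 59.2% for CA13. The consensus palindromic estrogen response element, the AP-1 motif TGANTCA and the CREB motif TGACGTCA were in none of the windows of the 7 genes, against 0.0097%, 5.48% and 1.63% of all windows.

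CA2, CA8 and CA12 were highest in the luminal epithelium, SLC4A4 and CFTR were highest in glands, and SLC4A7 was present in every library. This comparison of compartments averages cyclic and pregnant gilts with equal weight, so it does not contain the contrast by which the genes were put together, and it was tested with edgeR's quasi-likelihood test over 13887 genes with the gilt as a block, at a false discovery rate of 1%. CA3 could not be fitted, since it had no counts in cyclic or pregnant GE or in cyclic BV or S. Of the 7 genes, 6 differed between LE and GE and 6 between LE and BV, where 41.4% and 49.2% of all genes did. Between LE and S 4 differed (50.6% of all genes), between GE and BV 4 (58.3%), between GE and S 2 (59.3%), and between BV and S 1 (7.19%).

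**Figure D1:**
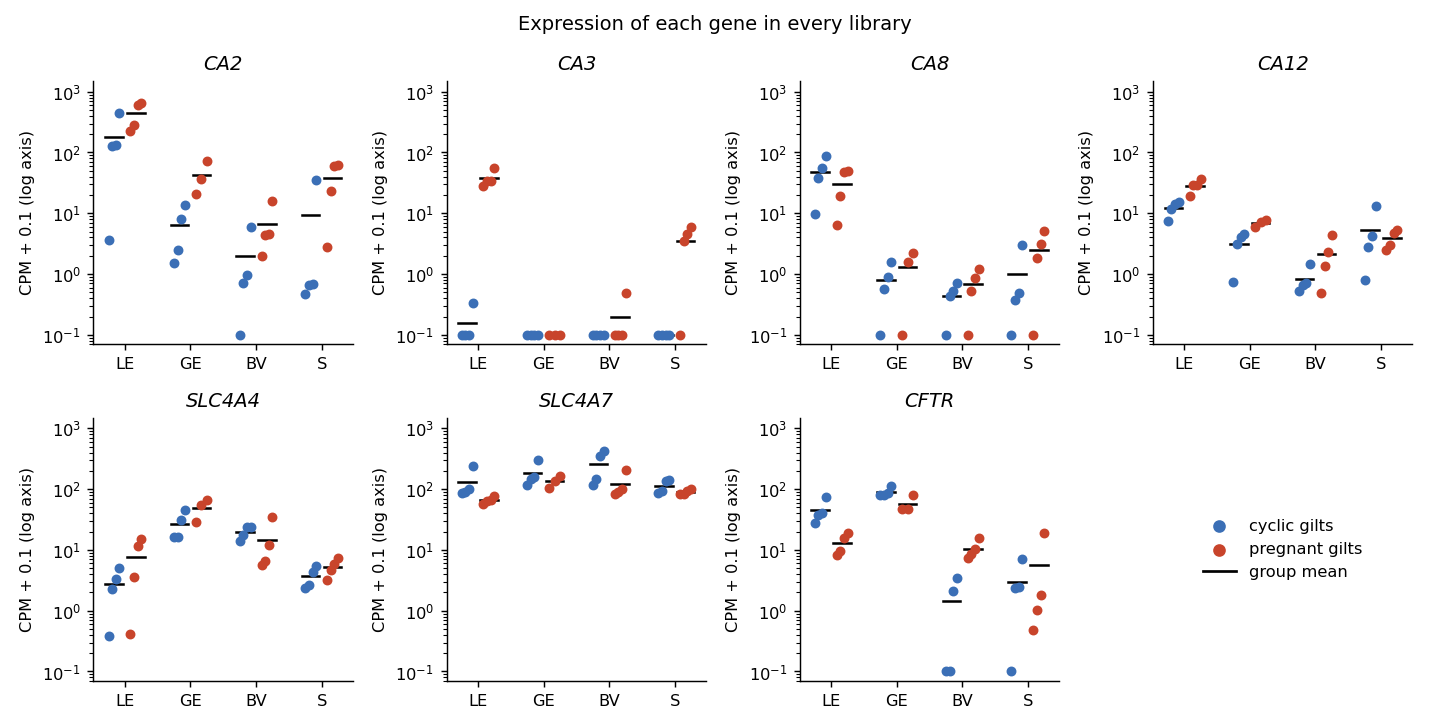
CPM of each gene (plus 0.1, log axis) in every library of LE, GE, BV and S, with cyclic gilts in blue, pregnant gilts in red and the group mean as a bar. CA2, CA8 and CA12 sit highest in LE, SLC4A4 and CFTR in GE, and CA3 is at or near 0 outside pregnant LE and S.

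CA2 was the most abundant of the 7 in LE. In cyclic LE it had 3.48, 131, 130 and 446 CPM (C128, C40, C42 and C78) and in pregnant LE 286, 227, 641 and 612 CPM (P139, P39, P41 and P43). It was higher in LE than in GE in 7 of 7 gilts and than in S in 8 of 8. The log2 difference was 3.61 between LE and GE (SE 0.61, adjusted p = 4.18e-05), 6.50 between LE and BV (SE 0.68, adjusted p = 6.54e-08) and 4.24 between LE and S (SE 0.58, adjusted p = 2.32e-06). In pregnant gilts alone LE against GE was not called (2.74, adjusted p = 0.0151). GE and S, next in the order, did not differ beyond their spread (log2 difference 0.63, SE 0.63, adjusted p = 0.387), and BV was lowest. The difference between GE and BV (2.89, SE 0.73, adjusted p = 0.00157) was not called without the gilt block (adjusted p = 0.0349) or in cyclic gilts alone (adjusted p = 0.0690).

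CA8 had hardly any counts outside LE. Its values in LE were 9.63, 38.2, 87.9 and 54.6 CPM in cyclic and 19.0, 6.36, 47.4 and 49.6 CPM in pregnant gilts, while no library of GE, BV or S exceeded 4.91 CPM. LE was above GE by 5.10 on the log2 scale (SE 0.56, adjusted p = 2.65e-07), above BV by 6.27 (SE 0.60, adjusted p = 2.10e-08) and above S by 4.51 (SE 0.49, adjusted p = 1.13e-07). GE, BV and S did not differ from each other beyond their spread, with adjusted p from 0.149 to 0.439.

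CA12 followed the same order at a lower level. Its highest library was LE of P43 with 35.9 CPM, and LE was above GE in 7 of 7 and above S in 8 of 8 gilts. The log2 difference was 2.08 between LE and GE (SE 0.40, adjusted p = 1.88e-04), 3.92 between LE and BV (SE 0.47, adjusted p = 4.12e-07) and 2.23 between LE and S (SE 0.39, adjusted p = 4.92e-05). In cyclic gilts alone the differences from GE (adjusted p = 0.0167) and S (adjusted p = 0.0479) were not called. GE and S did not differ beyond their spread (log2 difference 0.15, SE 0.43, adjusted p = 0.767). GE exceeded BV by 1.84 (SE 0.52, adjusted p = 0.00371), and this call was lost without C40, C42, P139, P39 or P43, with adjusted p between 0.0101 and 0.0193, and in cyclic (0.0582) or pregnant gilts alone (0.0172).

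SLC4A4 had a different order, with GE first, BV second and LE and S last. In GE it had 45.4, 16.4, 16.4 and 30.5 CPM in cyclic and 65.3, 55.0 and 28.7 CPM in pregnant gilts, against 0.285 to 14.9 CPM in the LE libraries. GE was above LE in 7 of 7 gilts, by 3.09 on the log2 scale (SE 0.40, adjusted p = 1.84e-06), and above S by 3.11 (SE 0.39, adjusted p = 5.35e-07). BV was above LE by 1.90 (SE 0.39, adjusted p = 2.47e-04) and above S by 1.91 (SE 0.39, adjusted p = 0.00199). The latter call was lost without P139 (log2 difference 1.61, adjusted p = 0.0147), and in pregnant gilts alone BV was called neither against S (1.30, adjusted p = 0.296) nor against LE (adjusted p = 0.176). LE and S did not differ beyond their spread (log2 difference 0.02, SE 0.44, adjusted p = 0.978). GE exceeded BV by 1.19 (SE 0.36, adjusted p = 0.00544), a call lost without C128, C40, C78, P39, P41 or P43 (adjusted p from 0.0104 to 0.0219) and without the gilt block (0.0242), and in cyclic gilts alone it was 0.37 with an adjusted p of 0.461.

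SLC4A7 was the most evenly spread of the genes. All 31 libraries lay between 56.3 CPM (LE of P41) and 419 CPM (BV of C78). LE was below GE in 7 of 7 gilts, with a log2 difference of -0.75 (SE 0.18, adjusted p = 0.00170), and below BV with -0.89 (SE 0.18, adjusted p = 1.94e-04). The call against GE was lost without P43 (adjusted p = 0.0113), without the gilt block (adjusted p = 0.0216) and in cyclic gilts alone (-0.56, adjusted p = 0.102). GE and BV did not differ beyond their spread (-0.15, SE 0.18, adjusted p = 0.499), nor did LE and S (-0.20, SE 0.18, adjusted p = 0.326). The differences of GE and BV from S, 0.55 (SE 0.18) and 0.69 (SE 0.18), just missed the threshold with adjusted p of 0.0121 and 0.0109, and GE against S passed it without C78 (adjusted p = 0.00211).

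CFTR was first in GE, second in LE, and low in BV and S. In GE it had 111, 86.0, 81.6 and 78.9 CPM in cyclic and 80.3, 46.6 and 46.6 CPM in pregnant gilts. GE was above LE in 7 of 7 gilts, with a log2 difference of LE minus GE of -1.70 (SE 0.42, adjusted p = 0.00199), which was not called without P43 (adjusted p = 0.0110), in cyclic gilts alone (-1.14, adjusted p = 0.0534) or in pregnant gilts alone (-2.37, adjusted p = 0.0181). GE exceeded BV by 4.42 (SE 0.52, adjusted p = 2.21e-07) and S by 4.53 (SE 0.52, adjusted p = 1.55e-07). LE exceeded BV by 2.72 (SE 0.52, adjusted p = 1.24e-04) and S by 2.83 (SE 0.50, adjusted p = 5.04e-05), but in pregnant gilts alone the difference between LE and BV was 0.39 with an adjusted p of 0.678, and that between LE and S 1.68 with an adjusted p of 0.106. BV and S did not differ beyond their spread (log2 difference 0.11, SE 0.65, adjusted p = 0.940).

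**Figure D2:**
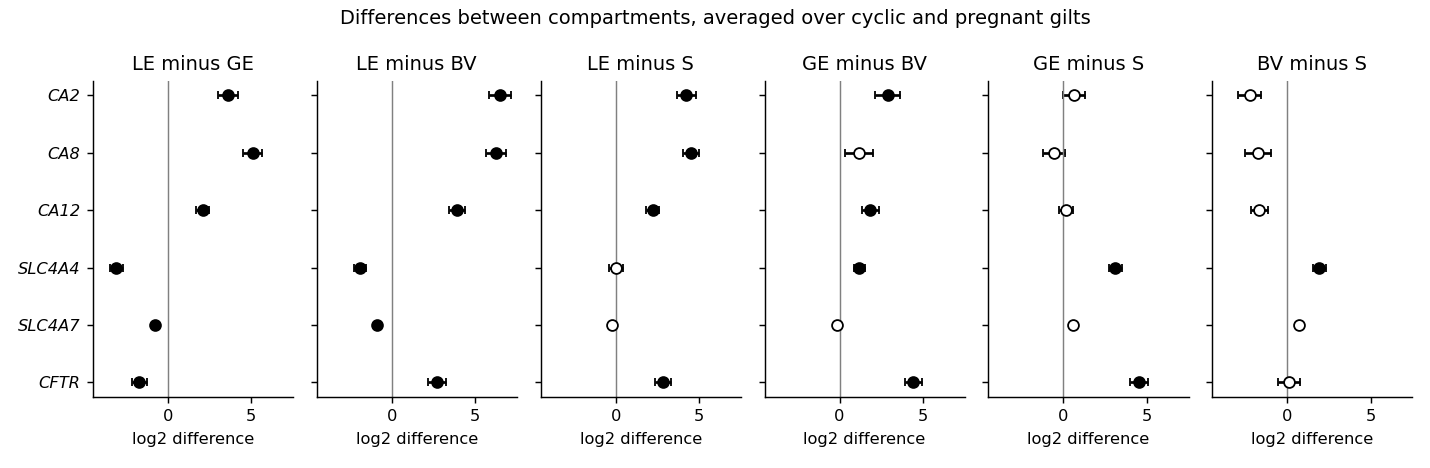
Log2 differences between compartments, averaged over cyclic and pregnant gilts, for the 6 genes that could be fitted. Points are fitted differences, bars are 1 SE, filled points passed a false discovery rate of 1%, and CA2, CA8 and CA12 lie to the LE side in all 3 panels with LE while SLC4A4 lies to the GE side in all 3 panels with GE.

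Between genes, levels can be set side by side only per length of transcript, here per kb of the longest annotated transcript, which is 1715 bases for CA2 and 9633 bases for SLC4A7. In cyclic LE the order of mean levels was CA2 (103 CPM per kb), CA8 (20.03), SLC4A7 (13.4), CFTR (7.11), CA12 (2.87), SLC4A4 (0.341) and CA3 (0.0335). In pregnant LE it was CA2 (257 CPM per kb), CA3 (22.2), CA8 (12.9), SLC4A7 (6.81), CA12 (6.67), CFTR (2.06) and SLC4A4 (0.965). In cyclic GE SLC4A7 (18.9 CPM per kb) and CFTR (14.0) led, before CA2 (3.71) and SLC4A4 (3.46), and in pregnant GE CA2 led (24.9), before SLC4A7 (14.0), CFTR (9.05) and SLC4A4 (6.33). These orders are descriptions over 3 or 4 gilts.

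The next paragraphs give the pregnant and cyclic values of each gene, which are the values that chose the genes. The call rule joins the study's cut-off with edgeR's quasi-likelihood test. The study itself used edgeR's robust test, and it reported CFTR as lower in LE and higher in BV of pregnant gilts. In LE, where all 7 were detectable, 1 passed the rule used here (a false discovery rate of 1%), beside 3.32% of all genes. Pregnant and cyclic libraries of LE did not overlap for 4, beside 19.4% of all genes. Of the 5 detectable in GE, 0 passed the rule for the other compartments (an unadjusted p of at most 3.28e-04, the highest p among the LE calls), beside 0.748% of all genes, and 2 did not overlap, beside 22.9%. Of 3 in BV 0 passed (1.86% of all genes) and 1 did not overlap (18.2%), and of 3 in S 0 passed (0.293%) and 0 had groups that did not overlap (8.81%). Nothing is read from these counts. The marker sums of LE also differed between the groups, with epithelial markers at 2716 to 3275 CPM in cyclic and 2189 to 2456 CPM in pregnant gilts and smooth muscle markers at 154 to 384 CPM and 93.2 to 116 CPM, and their part in the values of LE was not tested.

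CA3 was the gene with the widest gap between the groups. In LE it had 0, 0, 0 and 0.228 CPM in the cyclic gilts, a single count in all, and 27.8, 33.4, 33.6 and 55.7 CPM in the pregnant gilts, with 622 counts in all. All 4 pregnant libraries were far above every cyclic one, and the ratio of pooled CPM was 588 (95% counting interval 105 to 23254, which covers counting error only). The fitted log2 fold change was 8.69 (SE 0.56). It was 10.3 without C78, the gilt with the single count, where it depends on the prior count of the fit and is no bound. CA3 is best known from skeletal muscle, liver and adipose tissue. Adipocyte markers summed to at most 0.899 CPM in BV and to at most 0.636 CPM in LE, with ADIPOQ, PLIN1 and LEP at 0 in all LE libraries. No marker list for skeletal muscle or liver was used, and the cell source of the CA3 counts was not tested.

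Outside LE, CA3 had counts only in pregnant gilts. In GE there was none in any of the 7 libraries, which allows up to 0.161 CPM in cyclic and 0.245 CPM in pregnant gilts, and in BV a single count, in P41. In S the 4 cyclic libraries were at 0, and the pregnant gilts had 4.44, 0, 5.90 and 3.41 CPM, at least 21.0-fold above the level that 3 counts over the cyclic group would give. Pregnant LE was at least 148-fold above pregnant GE by the same floor, 374-fold above pregnant BV (95% counting interval 66.8 to 14783) and 9.95-fold above pregnant S (7.39 to 13.7).

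In pregnant S CA3 was seen in the 3 libraries with most CA2, while cyclic S of C78, with 35.8 CPM of CA2, had none. Per 100 counts of CA2, pregnant LE had 9.72, 14.7, 5.24 and 9.10 counts of CA3 (P139, P39, P41 and P43) and pregnant S 7.17, 0, 9.68 and 14.5. The ranges overlap, apart from the 0 in S of P39, where CA2 had only 7 counts. The epithelial marker sum in S was 263, 32.3, 425 and 97.4 CPM in the same gilts, lowest in P39 as well, and its part in the CA3 counts of S was not tested.

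CA2 was higher on average in pregnant gilts in all 4 compartments, but its groups overlapped in 3 of them. In LE the means were 177 ± 189 CPM in cyclic and 441 ± 216 CPM in pregnant gilts (SD, n = 4 each), with a log2 fold change of 1.29 (SE 0.95), and C78 lay within the pregnant range. In GE the cyclic gilts had 2.38, 8.07, 1.41 and 13.6 CPM and the pregnant gilts 20.7, 71.5 and 36.1 CPM, without overlap (log2 fold change 2.73, SE 0.72). The summed leukocyte markers of GE did not overlap either, with 17.2 to 32.0 CPM in cyclic and 33.2 to 69.5 CPM in pregnant gilts, and their part was not tested.

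In S CA2 had 0.580, 0.561, 0.365 and 35.8 CPM in cyclic and 62.0, 2.66, 60.9 and 23.5 CPM in pregnant gilts. C78 lay among the pregnant values, and the log2 fold change of 1.93 (SE 1.25) became 6.09 without it. This gilt had the highest CA2 level of the cyclic group in LE, GE, BV and S. Its epithelial marker sum in S was 154 CPM, next to 167 CPM in C128, where CA2 was low in S and lowest of all gilts in LE. Smooth muscle markers in S summed to 324 to 879 CPM in cyclic and 182 to 285 CPM in pregnant gilts, without overlap. The part of either marker list in the CA2 values was not tested. In BV CA2 was not detectable by the filter, with 0 to 5.95 CPM in cyclic and 1.89 to 16.1 CPM in pregnant gilts.

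CA12 was higher in pregnant LE and GE, without overlap in either. In LE it had 11.8, 7.43, 14.0 and 15.5 CPM in cyclic and 29.1, 29.3, 19.0 and 35.9 CPM in pregnant gilts (log2 fold change 1.22, SE 0.29). In GE the levels were 0.648, 3.92, 4.44 and 2.97 CPM against 5.90, 7.60 and 7.17 CPM (log2 fold change 1.17, SE 0.54). In S the means were 5.18 ± 5.49 CPM in cyclic and 3.76 ± 1.30 CPM in pregnant gilts (SD, n = 4 each), with overlap.

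CA8 had overlapping groups in every compartment. In LE the means were 47.6 ± 32.7 CPM in cyclic and 30.6 ± 21.3 CPM in pregnant gilts (SD, n = 4 each), with a log2 fold change of -0.63 (SE 0.70). The lowest cyclic library, that of C128 with 9.63 CPM, and the lowest pregnant one, that of P39 with 6.36 CPM, were close to each other.

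**Figure D3:**
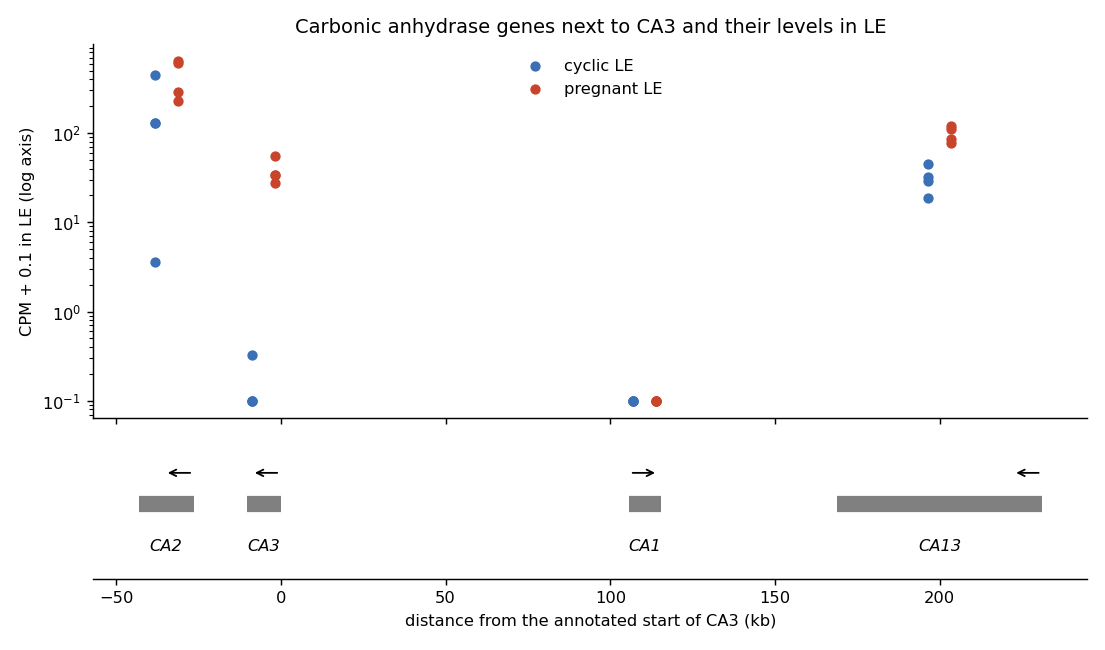
Genes CA2, CA3, CA1 and CA13 on chromosome 4 by distance from the annotated start of CA3 in kb, with arrows for the direction of transcription, below the CPM (plus 0.1, log axis) of each gene in the 4 cyclic (blue) and 4 pregnant (red) LE libraries. CA1 has 0 counts in LE, while the pregnant libraries of CA3 and CA13 lie above all cyclic ones.

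CFTR had pregnant values on opposite sides of the cyclic ones in LE and BV. In LE it had 75.2, 38.2, 28.0 and 40.5 CPM in cyclic and 15.7, 19.1, 8.28 and 9.60 CPM in pregnant gilts, all pregnant libraries being lower (log2 fold change -1.78, SE 0.37). In BV it had 2.02, 3.30, 0 and 0 CPM in cyclic and 15.6, 7.20, 10.3 and 8.53 CPM in pregnant gilts, all higher (log2 fold change 2.89, SE 0.76). Without C40 the value in BV was 3.86. Whether these effects differed was not tested.

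The BV captures differed in epithelial RNA in the same direction. The sum of the 7 epithelial markers was 22.2, 45.6, 2.56 and 26.8 CPM in cyclic BV. In pregnant BV it was 273, 169, 149 and 157 CPM, with no overlap. Within the pregnant group the orders of marker sum and CFTR differed. P139 was highest in both, but P39, second in markers, had the least CFTR (7.20 CPM). All 7 markers had counts in both groups, and their part in the CFTR values of BV was not tested. In GE the CFTR means were 89.3 ± 14.6 CPM in cyclic (n = 4) and 57.8 ± 19.4 CPM in pregnant gilts (n = 3), with a log2 fold change of -0.63 (SE 0.24), and P139 with 80.3 CPM fell among the cyclic gilts. In S CFTR was at most 6.96 CPM in all libraries except that of P41, with 19.0 CPM. P41 also had the highest epithelial marker sum in S (425 CPM). P139, second in that sum with 263 CPM, had only 0.935 CPM of CFTR. The part of these markers in the CFTR values of S was not tested.

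**Figure D4:**
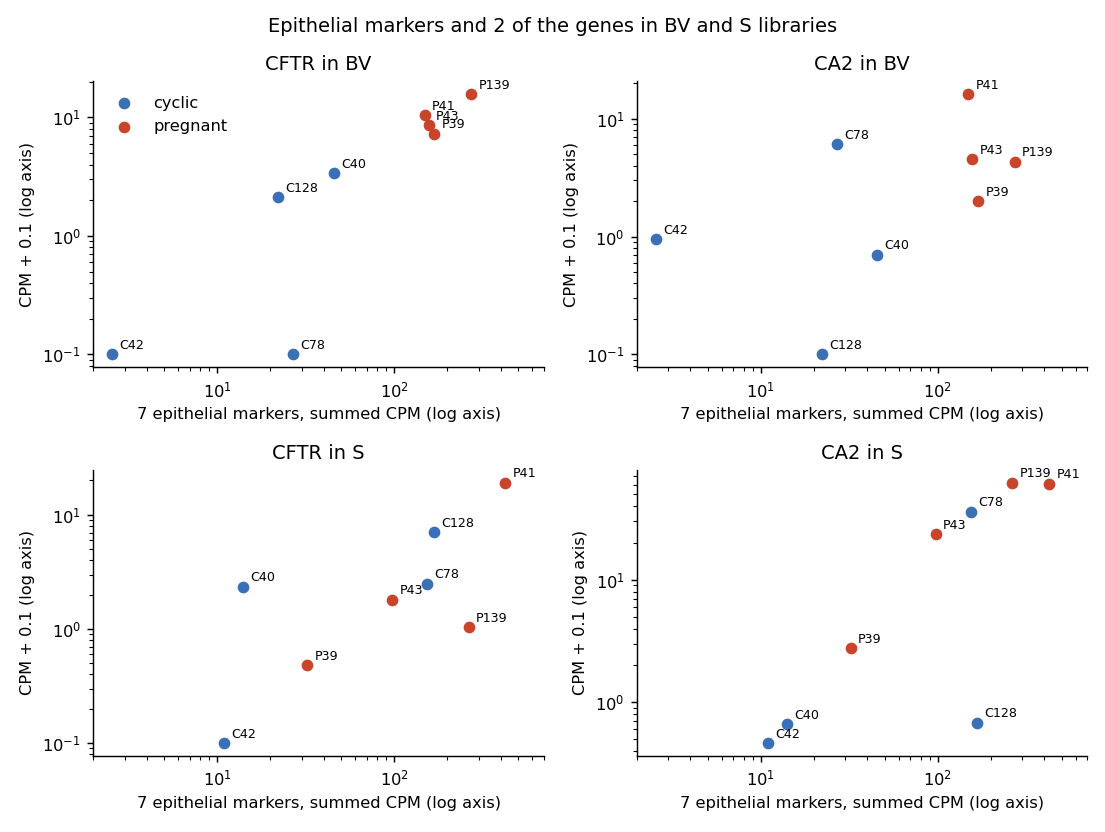
CPM of CFTR and CA2 (plus 0.1, log axis) in BV (top) and S (bottom) libraries against the summed CPM of 7 epithelial markers (log axis), with cyclic gilts in blue, pregnant gilts in red and the gilt number beside each point. Pregnant BV libraries lie to the right, from 149 CPM of markers, and above the cyclic ones for CFTR, while in S the groups overlap on both axes.

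The sodium bicarbonate cotransporters had no common direction. SLC4A7 was lower in pregnant LE, with 241, 86.9, 88.7 and 101 CPM in cyclic and 75.8, 67.1, 56.3 and 63.1 CPM in pregnant gilts, without overlap (log2 fold change -0.96, SE 0.33). Its means were lower in pregnant gilts in GE (182 against 135 CPM), BV (258 against 121 CPM) and S (115 against 90.1 CPM) too, with overlap in each. Smooth muscle markers summed to 5110 to 17092 CPM in cyclic and 724 to 6217 CPM in pregnant BV. In S they summed to 324 to 879 CPM in cyclic and 182 to 285 CPM in pregnant gilts. The part of these markers in the SLC4A7 values was not tested. C128 had the highest SLC4A7 level of its group in LE, GE and S.

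SLC4A4 groups overlapped everywhere. Its means in GE were 27.2 ± 13.9 CPM in cyclic (n = 4) and 49.7 ± 18.9 CPM in pregnant gilts (n = 3), with a log2 fold change of 0.87 (SE 0.42). In BV they were 19.8 ± 4.85 and 14.5 ± 13.4 CPM (SD, n = 4 each). The BV log2 fold change of -0.45 (SE 0.52) became -1.30 without P139, whose 34.3 CPM was the highest value in BV. The same gilt had the highest SLC4A4 level of the pregnant group in LE, GE and BV. Smooth muscle markers in BV, where SLC4A4 was second highest, summed to 5110 to 17092 CPM in cyclic and 724 to 6217 CPM in pregnant gilts, and their part was not tested.

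Other genes of acid, base and chloride transport were taken from 6 lists with 74 genes, none of them among the 7, and the quasi-likelihood test of edgeR was run on pregnant against cyclic libraries. The lists, too, were chosen with earlier results of these data known, so their calls are no independent findings. In LE 37 were detectable and 4 were called, 2 higher and 2 lower in pregnant gilts, beside 3.32% of all genes, and values are given for CA13 and ATP1B1 among the 4. In BV 1 of 28 was called (1.86% of all genes), in GE 0 of 32 (0.748%) and in S 0 of 37 (0.293%). In the order LE, GE, BV, S, an unadjusted p under 0.05 was reached by 14, 6, 13 and 7 of them. DESeq2 called 8, 4, 4 and 1, and edgeR's robust likelihood ratio test, which the study used, called 11, 4, 5 and 2. The shares of all genes at that p and with these tests are not given here, so nothing is read from these counts. In the same order, the median log2 fold change of the detectable list genes was -0.02, 0.04, 0.13 and 0.03, beside -0.01, -0.01, 0.00 and 0.00 for all genes.

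Of 11 other carbonic anhydrases, 2 were detectable in LE, and CA13 rose there. CA13, a cytosolic isoform (gene ID 100152714, chr4:51406755-51468971, minus strand, matched by product name), had 18.5, 28.6, 32.0 and 44.6 CPM in cyclic and 78.2, 85.0, 121 and 112 CPM in LE of pregnant gilts. All pregnant libraries were above all cyclic ones, with a log2 fold change of 1.68 (SE 0.28, adjusted p = 0.00747). The call was lost without C40, C42, P139, P39, P41 or P43, with adjusted p between 0.0157 and 0.0290. In S CA13 had 3.82 ± 1.97 and 11.05 ± 7.33 CPM (SD, n = 4 each; log2 fold change 1.56, SE 0.60, adjusted p = 0.289).

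The remaining carbonic anhydrases were detectable in at most 3 compartments. CA1, whose start lies 106 kb from that of CA3, was at 0 in LE and GE and had a single count in each of 3 libraries of BV and S. CA5B, a mitochondrial isoform, was detectable in 3 compartments and had its highest means in BV, 19.7 ± 4.01 CPM in cyclic and 20.6 ± 5.88 CPM in pregnant gilts (adjusted p = 0.866). CA11, a related protein without enzyme activity, was detectable in S alone (6.35 ± 2.61 and 12.6 ± 5.50 CPM, adjusted p = 0.327), and CA9, the hypoxia-induced membrane isoform, in no compartment, with means of at most 2.01 CPM.

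Of 9 sodium-proton exchangers, 7 were detectable in LE. SLC9A4, an exchanger known from the basolateral side of gastric cells, had 146 to 290 CPM in cyclic and 18.8 to 77.4 CPM in LE of pregnant gilts and just missed the threshold (log2 fold change -2.37, SE 0.43, adjusted p = 0.0103). SLC9A8, an exchanger of the Golgi, had a log2 fold change of -0.02 in LE (adjusted p = 0.965).

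Of 10 genes of the pump and potassium list, 6 were detectable in LE, and ATP1B1 fell there. ATP1B1, a beta subunit of the sodium pump (gene ID 396898, chr4:81912543-81937015), had 458, 568, 419 and 268 CPM in cyclic and 95.1, 68.4, 98.7 and 137 CPM in LE of pregnant gilts (log2 fold change -2.08, SE 0.27, adjusted p = 0.00302). All pregnant libraries were lower, and the call was lost without C40, C42, P139 or P39 (adjusted p from 0.0110 to 0.0125). ATP1B3, another beta subunit, had a log2 fold change of -0.84 (SE 0.23, adjusted p = 0.0480) and was not called.

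In GE, ATP1B1 had a log2 fold change of -1.67 (SE 0.30, unadjusted p = 4.83e-04, adjusted p = 0.0451) and was not called, though DESeq2, the robust test and the fit without a filter called it, as did the test without C78 (log2 fold change -1.82, unadjusted p = 3.05e-04). The proton pump subunit ATP6V1B1, known from acid-secreting cells of the kidney, had 136 ± 57.0 CPM in cyclic and 345 ± 40.95 CPM in LE of pregnant gilts (SD, n = 4 each), a log2 fold change of 1.35 (SE 0.29, adjusted p = 0.0204) that was not called. Its values in GE (1.81, SE 0.42, adjusted p = 0.0678) and S (2.81, SE 0.83, adjusted p = 0.187) were positive as well. ATP6V1A, the catalytic subunit of the same pump, had -0.47 in LE (SE 0.20, adjusted p = 0.178).

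Of 19 other SLC4 and SLC26 anion transporters, 3 (BV) to 7 (LE) were detectable per compartment, and 0 were called by edgeR's quasi-likelihood test, with 2 in BV and 0 elsewhere at an unadjusted p under 0.05. SLC4A2, an anion exchanger of many epithelia, had a log2 fold change of -0.39 in LE, 0.22 in GE and 0.06 in S, and 0.72 for BV (adjusted p from 0.108 to 0.936). SLC26A4, the anion exchanger pendrin, ranged from 1.37 to 1344 CPM in cyclic LE and from 32.8 to 86.8 CPM in LE of pregnant gilts (adjusted p = 0.399). SLC26A2, a sulfate transporter, had means between 57.9 and 104 CPM in all groups.

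Of 13 genes of chloride channels and chloride loading, 0 were called in any compartment. SLC12A2, the cotransporter NKCC1 that loads epithelial cells with chloride, had 24.2 to 1815 CPM in cyclic GE and 1778 to 4422 CPM in pregnant GE (log2 fold change 1.49, SE 1.01, adjusted p = 0.418). In LE it had 0.71 (SE 0.27, adjusted p = 0.126) and in BV 2.01 (SE 0.44, adjusted p = 0.0297). CLCN3, an endosomal chloride-proton exchanger, had -0.02 in LE (SE 0.31, adjusted p = 0.976) and 1.64 in BV (SE 0.41, adjusted p = 0.0418). Summed epithelial markers were also higher in pregnant BV (149 to 273 CPM) than in cyclic BV (2.56 to 45.6 CPM). Their part in the BV values of SLC12A2 and CLCN3 was not tested.

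Of 12 regulators of CFTR and the sodium bicarbonate cotransporters, 9 were detectable in BV, and SLC9A3R1 rose there. SLC9A3R1, the scaffold NHERF1 that binds CFTR at the apical membrane (gene ID 100233201, chr12:6466138-6483539), had 5.04, 5.10, 5.68 and 5.10 CPM in cyclic and 19.9, 16.3, 10.3 and 11.9 CPM in pregnant BV (log2 fold change 1.48, SE 0.27, unadjusted p = 3.09e-04, adjusted p = 0.0172). This call, beside 1.86% of all genes in BV, was lost without any 1 gilt except P41, with unadjusted p from 4.94e-04 to 0.00135. In LE, GE and S it had adjusted p from 0.431 to 0.938. Epithelial markers were higher in the same BV libraries (149 to 273 against 2.56 to 45.6 CPM), and their part in this result was not tested. AHCYL1, the protein IRBIT that activates SLC4A4 and CFTR, had -1.098 in LE (SE 0.47, adjusted p = 0.168) and -0.78 in GE (SE 0.26, adjusted p = 0.132). The kinases PRKACB and OXSR1 had log2 fold changes of -0.12 and -0.37 in LE (adjusted p = 0.849 and 0.191).

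**Figure D5:**
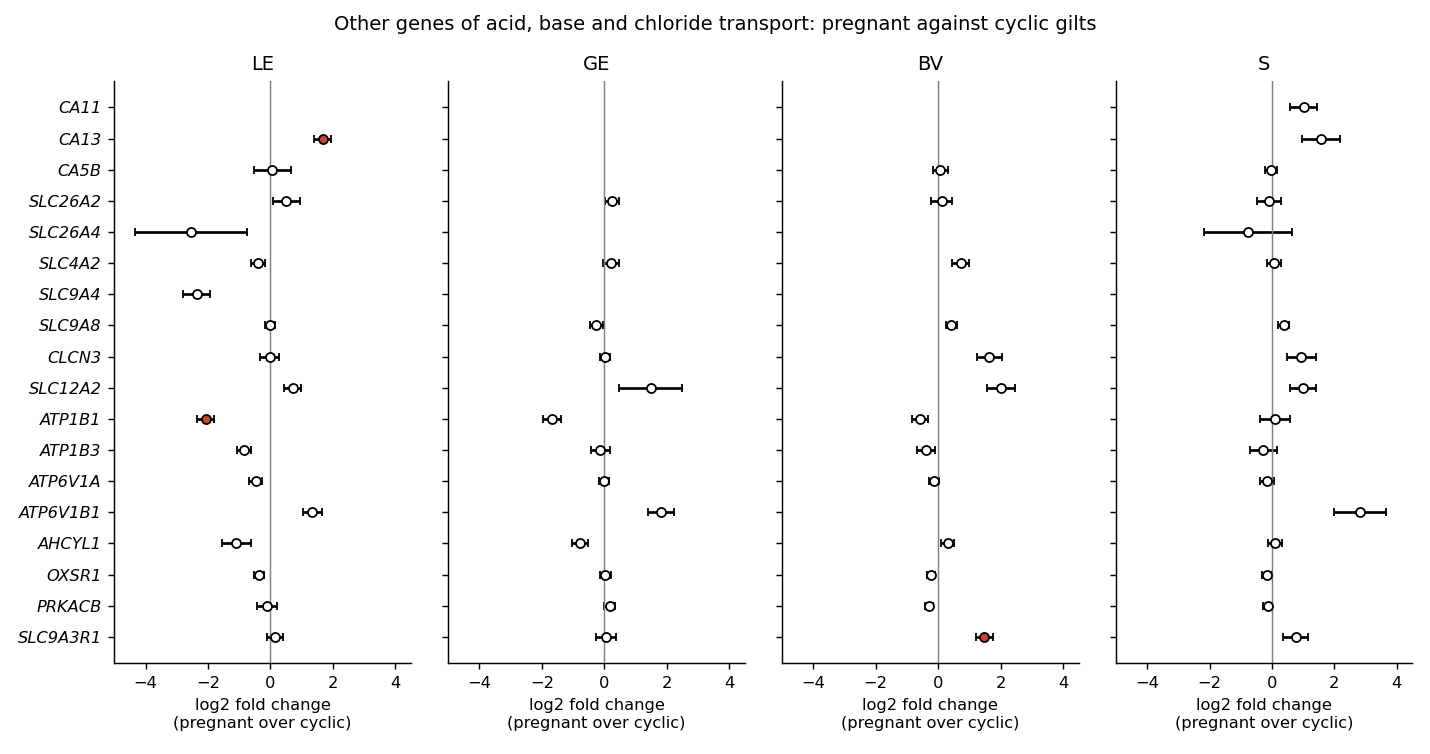
Log2 fold changes of pregnant over cyclic gilts, with bars of 1 SE, for the named genes of the pathway lists in the compartments where they were detectable. Filled points were called (CA13 and ATP1B1 in LE, SLC9A3R1 in BV), and open points were not.

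The pattern of each gene over the 31 libraries was set beside those of all other detectable genes by Pearson's r of log2(CPM + 1), as a description, since libraries share gilts and compartments. CA2 was most like CYP7A1 (r = 0.9495) and NOS1 (r = 0.933), CA3 most like TUBAL3 (r = 0.960) and S100A12 (r = 0.955), and CA8 most like LOC100524016 (r = 0.970) and CCKBR (r = 0.954). CA12 was most like LRRC57 (r = 0.883) and ERBB2 (r = 0.852). CFTR was most like KRT19 (r = 0.954), one of the epithelial markers, and ARHGEF38 (r = 0.953). The best values were lower for SLC4A4, with PTPRK (r = 0.836), and for SLC4A7, with ENAH (r = 0.850) and PLCB4 (r = 0.844).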

How the data were processed

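Counts per NCBI gene were deposited by the authors as whole numbers for LE, GE, BV and S, without normalization. RNA from the captures (PicoPure) was made into libraries with Ovation SoLo. As the study's methods say, the authors used Trim Galore for trimming, Hisat2 for alignment (Sscrofa11.1), NuGEN's nudup for PCR duplicates and QuasR for counting (versions not given in the sources used here). Their filtered tables hold 12002, 11905, 11096 and 11935 genes, with the same counts as the full tables. All 30185 IDs matched the annotation.

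The genes and lists were chosen with earlier results of these data known. Named list genes are those called in any compartment and up to 3 more per list by mean CPM. With edgeR 4.0.16 in R 4.3.3 (TMM, quasi-likelihood test, Benjamini-Hochberg), compartments were compared in 1 fit of 31 libraries with gilt as a block, since each gilt gave all compartments. Of 45 same-gilt pairs of libraries, 35 had deviations correlated above 0.1 (median 0.165). Pregnancy was tested per compartment. The study used edgeR's robust likelihood ratio test, here an alternative beside DESeq2 1.42.0. Scripts were tested on simulated data. Standard errors come from the coefficient and its F statistic. Likeness used a pseudocount of 1. Some genes of the lists, 1 of the genes with a like pattern and 1 upstream sequence are not reported here.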

Additional observations from a re-analysis of the deposited data

Results flagged for a closer look

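In 52 groups of 4 libraries tested for a single distant value (Dixon's test at 95%), 7 stood out, and chance flags about 1 in 20 such groups. C78 gave 3 of them, with CA2 at 5.95 CPM in BV (next highest 0.852) and 35.8 CPM in S (next 0.580), and CA8 at 2.91 CPM in S (next 0.387). SLC4A7 reached 241 CPM in LE of C128 (next 101) and 211 CPM in BV of P139 (next 102). CFTR reached 19.0 CPM in S of P41 (next 1.70). SLC9A3R1 had 5.68 CPM in BV of C42 (next 5.10), a gap of under 1 CPM in a group of 4 close values.

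CFTR had pregnant libraries all below the cyclic ones in LE and all above them in BV, and the difference between the compartments was not tested. Its pregnant mean in LE was 13.2 CPM.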

How the results depend on the processing

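Of 576 fitted differences between compartments under other settings, 509 kept their direction and side of the threshold, 31 lost and 14 gained a call, and 22 changed sign, each of them uncalled before and after. Leaving out 1 gilt gave -0.34 to 0.22 for SLC4A4 between LE and S, -0.25 to 0.081 for SLC4A7 between GE and BV and -0.44 to 1.13 for CFTR between BV and S. Between GE and S it gave -0.064 to 1.81 for CA2, -1.40 to 0.079 for CA8 and -0.059 to 0.44 for CA12. SLC4A4 between LE and S was -0.12 with DESeq2 and -0.045 with the robust test. In cyclic gilts alone the values were -0.38 for SLC4A4 and 0.059 for SLC4A7 between LE and S, -0.52 for CA12 between GE and S and -1.07 for CFTR between BV and S, and in pregnant gilts alone SLC4A7 had 0.19 between GE and BV. With no replicate block CA2 had -0.24 between GE and S, and CFTR -0.12 between BV and S. The gilt block was in the main comparison, as compartments came from the same gilts. With no replicate block the number of the 7 genes that differed between GE and BV went from 4 to 2, and it stayed within 1.5 times the main count in the other comparisons. In cyclic gilts alone 3 rather than 6 differed between LE and GE and 1 between GE and BV. Between BV and S the number was 4 with DESeq2, 4 with the robust likelihood ratio test, 4 at a false discovery rate of 5%, 2 with RLE normalization, 2 without a filter and 0 in pregnant gilts alone. Leaving out 1 gilt gave 4 to 6 genes for LE against GE, 2 to 3 for GE against BV and 0 to 1 for BV against S. Pregnancy within a compartment allows no such block, as no gilt was both pregnant and cyclic.

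Of the list genes, the 4 calls in LE became 8 with DESeq2, 11 with the robust test and 9 at a false discovery rate of 5%, and 1 to 5 without 1 gilt. In GE 0 became 4, 4 and 1, and 1 without a filter, with 0 to 1 without 1 gilt. In BV 1 became 4, 5 and 5, 0 with filterByExpr, and 0 to 2 without 1 gilt. In S 0 became 1 with DESeq2 and 2 with the robust test. The shares of all genes called under these settings are not given here, so nothing is read from the counts. The cause was not tested. Another normalization shifted the median of all genes by at most 0.0887 on the log2 scale. The robust test gave 5.30 for CA2 in S. Among the uncalled list results, leaving out 1 gilt gave log2 fold changes from -0.11 to 0.30 for SLC9A3R1 in LE, -0.26 to 0.36 in GE, and -0.44 to 0.57 for ATP1B1 in S.

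With 2415216 to 7081556 counts per library, CA3, CA8 and CA12 outside LE rested on few counts, and differences there were hardly detectable.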
